A study of Homo sapiens with 15 samples.

Results

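This account follows the effect of the kinase inhibitor GNF-7 in senescent human cells from 6 h to 24 h, gene by gene, and asks which responses passed early, which lasted, which came late and which turned round. The cells are HT-1080, a line from a human fibrosarcoma. They were made senescent by expressing, over 6 days, a mutant of TRF2 (gene TERF2), a protein that caps telomeres, that acts as a dominant negative, in medium with tetracycline-free serum and at 5% oxygen. GNF-7 at 1 uM, or its vehicle DMSO, was then given over 6 h or 24 h, with 3 RNA sequencing libraries in each of these 4 groups. The members are these 12 libraries of the 15 in the series, and all 12 carry the TRF2 mutant. The other 3 libraries, cycling cells in DMSO with a time label of 6 h, entered no contrast, but shared in the filter on low counts, the scaling and the estimate of the spread. All groups come from 1 tumour line and 1 way of inducing senescence. The labels call the libraries biological replicates, and no label says whether each had its own culture, so p-values measure the spread between these samples.

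GCN2 (gene EIF2AK4) is given in the title of the study as the kinase through which GNF-7 acts on senescent cells. It senses uncharged tRNA and phosphorylates the translation initiation factor eIF2, which lowers general protein synthesis while the mRNA of the transcription factor ATF4 is translated more. ATF4 and its partners raise genes for amino acid supply, tRNA charging and feedback on the pathway, and this chain of events is the integrated stress response (ISR). Senescent cells have left the cell cycle for good, and are known for a secretory state, for raised p53 targets and for an enlarged lysosomal compartment.

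Library totals ran from 25991007 to 32323393 counts, and 18563 genes were tested. Levels are given as CPM, a count scaled by edgeR to the size of its library, so that they compare samples and not genes of different length. The share of counts from the mitochondrial genome was 11.2 to 12.4% in vehicle and 13.2 to 15.3% in GNF-7 at 6 h, and 15.1 to 18.7% and 22.6 to 24.1% at 24 h. Its part in the results below was not tested by itself. With mitochondrial genes left out of the scaling, 5772 genes had an interaction past the threshold, against 5723 with them. The summed level of 8 mesenchymal markers was 9120 to 9870 CPM in vehicle at 6 h, 7880 to 8720 CPM in GNF-7 at 6 h, 9430 to 10500 CPM in vehicle at 24 h and 5440 to 5800 CPM in GNF-7 at 24 h. The 6 epithelial markers together stayed at or under 1.27 CPM in the first 3 of these groups and reached 1.56 to 2.54 CPM in GNF-7 at 24 h, and GRHL2 was at 0 in all 12 libraries. The 6 immune markers summed to at most 1.46 CPM in any of the 12 libraries, and the 5 endothelial markers to at most 1.46 CPM in the first 3 groups and to 1.79 to 2.37 CPM in GNF-7 at 24 h. The part of these markers in the results was not tested. In bulk RNA, fewer cells of a type and less RNA per cell cannot be told apart, which bears on each fall described here.

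The targeted pathway was looked at first. EIF2AK4 (ENSG00000128829, GRCh38 chromosome 15, 39934146 to 40035591) had 120.1, 122 and 124 CPM in vehicle and 124, 115 and 119.6 CPM in GNF-7 at 6 h, and 118, 118 and 113 against 112, 106 and 98.4 CPM at 24 h. The GNF-7 libraries overlapped those of vehicle at 6 h and lay below them at 24 h. Its GNF-7 effect, a log2 fold change against vehicle, was -0.03 at 6 h and -0.15 at 24 h (edgeR adjusted p 0.00277). The difference between the 2 effects was -0.12 (SE 0.061, adjusted p 0.136) and did not pass, except without GNF-7 24 h replicate 1 (-0.165). TERF2, the gene of the induced mutant, fell further at 24 h than at 6 h, with effects of -0.37 and -0.73 and a difference of -0.36 (adjusted p 4.72e-07). Counts here do not tell mutant from normal TERF2, and part of them may belong to a gene it overlaps on its own strand.

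The time dependence itself was measured as an interaction, the GNF-7 effect at 24 h minus the GNF-7 effect at 6 h, on the log2 scale. A positive value means that the gene stood higher relative to vehicle at 24 h than at 6 h. At an adjusted p under 0.05, 5723 genes passed, 30.8% of those tested, with 2373 higher and 3350 lower. A difference of at least 2-fold was seen in 925 of them, 543 higher and 382 lower. The effect against vehicle passed for 7286 genes (39.3%) at 6 h and for 10940 (58.9%) at 24 h. Over all genes tested the median interaction was -5.15e-05, and the median effects were 0.01 at 6 h and 0.04 at 24 h. Between 6 h and 24 h, 47.8% of all genes tested moved in GNF-7 and 18.5% in vehicle. Of the 5723 genes, 5048 (88.2%) moved in GNF-7 and 1762 (30.8%) in vehicle. Only the GNF-7 libraries moved for 3745 (65.4%) and only the vehicle libraries for 459 (8.02%). These shares use the same libraries as the interaction and describe where it came from. In 1303 genes (22.8%) both arms moved, in 517 of them in opposite directions. The move was larger in GNF-7 than in vehicle for 4895 (85.5%).

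Genes were sorted by which of the 3 tests they passed, so the values that follow describe the classes and are no further test of them. A gene was early transient if its effect passed at 6 h and not at 24 h and the interaction passed. It was late only if the reverse held. It was sustained if both effects passed in the same direction, and then level where the interaction did not pass, growing where the effect became larger and fading where it became smaller. It was sign-changing if both effects passed in opposite directions. There were 487 early transient genes (2.62% of those tested), 5627 sustained (30.3%), 2451 late only (13.2%) and 319 sign-changing (1.72%). The sustained genes divided into 3243 level, 2221 growing and 163 fading. A further 3396 genes passed at 1 time with no interaction and are left unsorted, 82 passed only the interaction and 6201 passed nothing. Of the 5946 genes that passed at both times, the median size of the log2 effect was 0.35 at 6 h and 0.56 at 24 h.

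**Figure D1:**
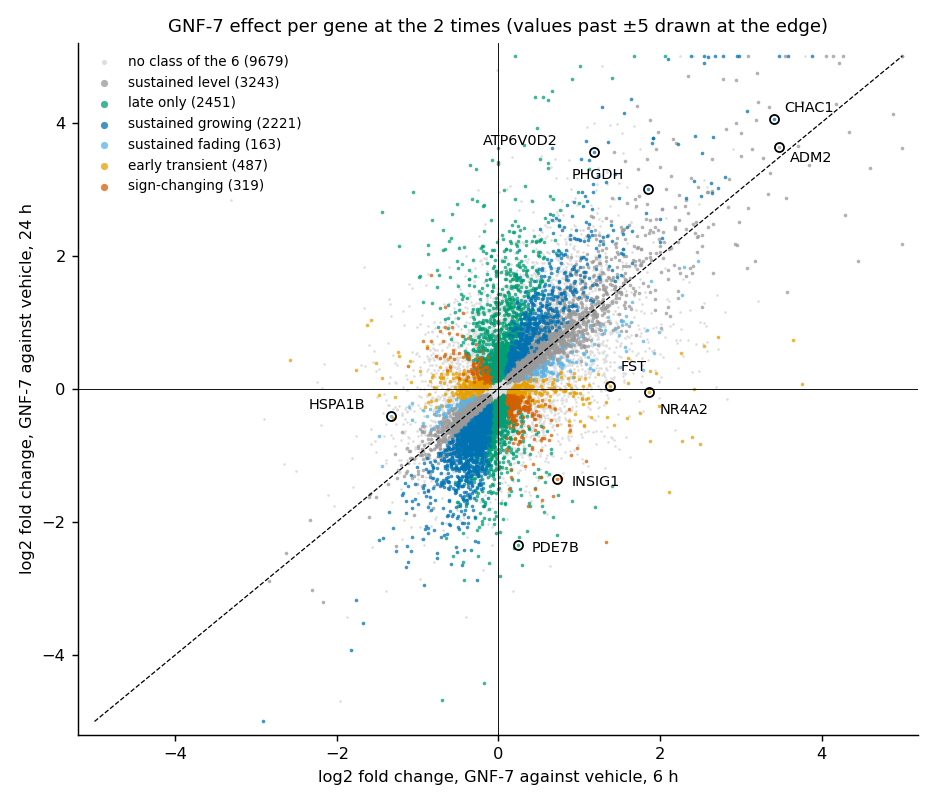
Each point is 1 of the 18563 genes, with the log2 GNF-7 effect at 6 h on the horizontal axis and at 24 h on the vertical axis, coloured by class. Values past 5 in size are drawn at the edge. Early transient genes lie along the horizontal axis, late only genes along the vertical one, and growing genes between the diagonal and the vertical axis.

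Direction was uneven in some classes. Growing genes were mostly lower in GNF-7, with 1580 down (8.51% of all genes) and 641 up (3.45%). Level genes were near balance, with 1571 down (8.46%) and 1672 up (9.01%). In the growing genes that fell, the median effect went from -0.27 at 6 h to -0.69 at 24 h, and in those that rose from 0.45 to 1.00. Late only genes were near balance too, with 1200 down (6.46%) and 1251 up (6.74%). Their median effect size was 0.09 at 6 h and 0.51 at 24 h. Early transient genes, 258 down (1.39%) and 229 up (1.23%), had median effect sizes of 0.35 at 6 h and 0.08 at 24 h. Of the 52 early transient genes with an effect of at least 2-fold at 6 h, 39 had risen at 6 h and 13 had fallen. The GNF-7 libraries did not overlap those of vehicle for 8857 genes (47.7%) at 6 h and 11724 (63.2%) at 24 h. The borders between classes are thresholds. The lowest adjusted p at 24 h among early transient genes was 0.0514 and 69 of them were under 0.1, while the lowest at 6 h among late only genes was 0.0505 and 301 were under 0.1.

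The early transient rises with the largest interactions among genes of at least 5 CPM were NR4A2, PDE4D, FST and CHMP1B. NR4A2 (ENSG00000153234, chromosome 2, 156324432 to 156342348, minus strand) is an orphan nuclear receptor and an immediate early gene. It was at 15.1, 16.1 and 16.02 CPM in vehicle and 61.2, 56.4 and 54.6 CPM in GNF-7 at 6 h, then at 12.1, 9.63 and 11.8 CPM in vehicle and 11.3, 10.8 and 10.4 CPM in GNF-7 at 24 h. The groups were far apart at 6 h and overlapped at 24 h, an interaction of -1.92 (SE 0.121, edgeR adjusted p 1.23e-20). FST, which encodes the activin-binding protein follistatin, was at 25.1, 26.8 and 25.1 against 66.9, 65.95 and 68.03 CPM at 6 h and 19.3, 17.1 and 16.1 against 19.4, 18.5 and 16.5 CPM at 24 h. Its vehicle libraries also fell between the times (-0.55), so the return to the vehicle level happened on a falling baseline. The interaction was -1.33 (SE 0.092, adjusted p 5.36e-19). PDE4D, a phosphodiesterase that breaks down cyclic AMP, was at 4.801, 5.91 and 4.86 against 18.3, 17.7 and 21.1 CPM at 6 h and 5.998, 5.71 and 4.99 against 6.41, 7.47 and 6.24 CPM at 24 h. At 24 h its GNF-7 libraries still lay just above those of vehicle, but the effect of 0.27 did not pass (adjusted p 0.0692). CHMP1B, a subunit of the ESCRT-III membrane scission machinery, had effects of 1.13 at 6 h and 0.05 at 24 h. PDE4D and CHMP1B overlap genes on the other strand.

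Among early transient falls of at least 5 CPM, the largest interactions were those of L3MBTL3, DUSP18, WNT3 and TRIB1. L3MBTL3, a reader of methylated lysine, was at 9.87, 8.49 and 9.64 CPM in vehicle and 5.12, 5.76 and 5.12 CPM in GNF-7 at 6 h, and the ranges overlapped at 24 h, 8.01, 9.95 and 8.82 against 10.8, 9.74 and 10.2 CPM. WNT3, a secreted Wnt ligand, went from an effect of -0.72 to 0.17 and TRIB1, a pseudokinase, from -0.68 to 0.15. DUSP18, a phosphatase, went from -0.85 to 0.12, and its reads may be shared with a gene it overlaps on the same strand. The falls at 6 h were under 1 log2 unit in all 4. The 13 early transient falls of at least 2-fold at 6 h all had a mean under 5 CPM.

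**Figure D2:**
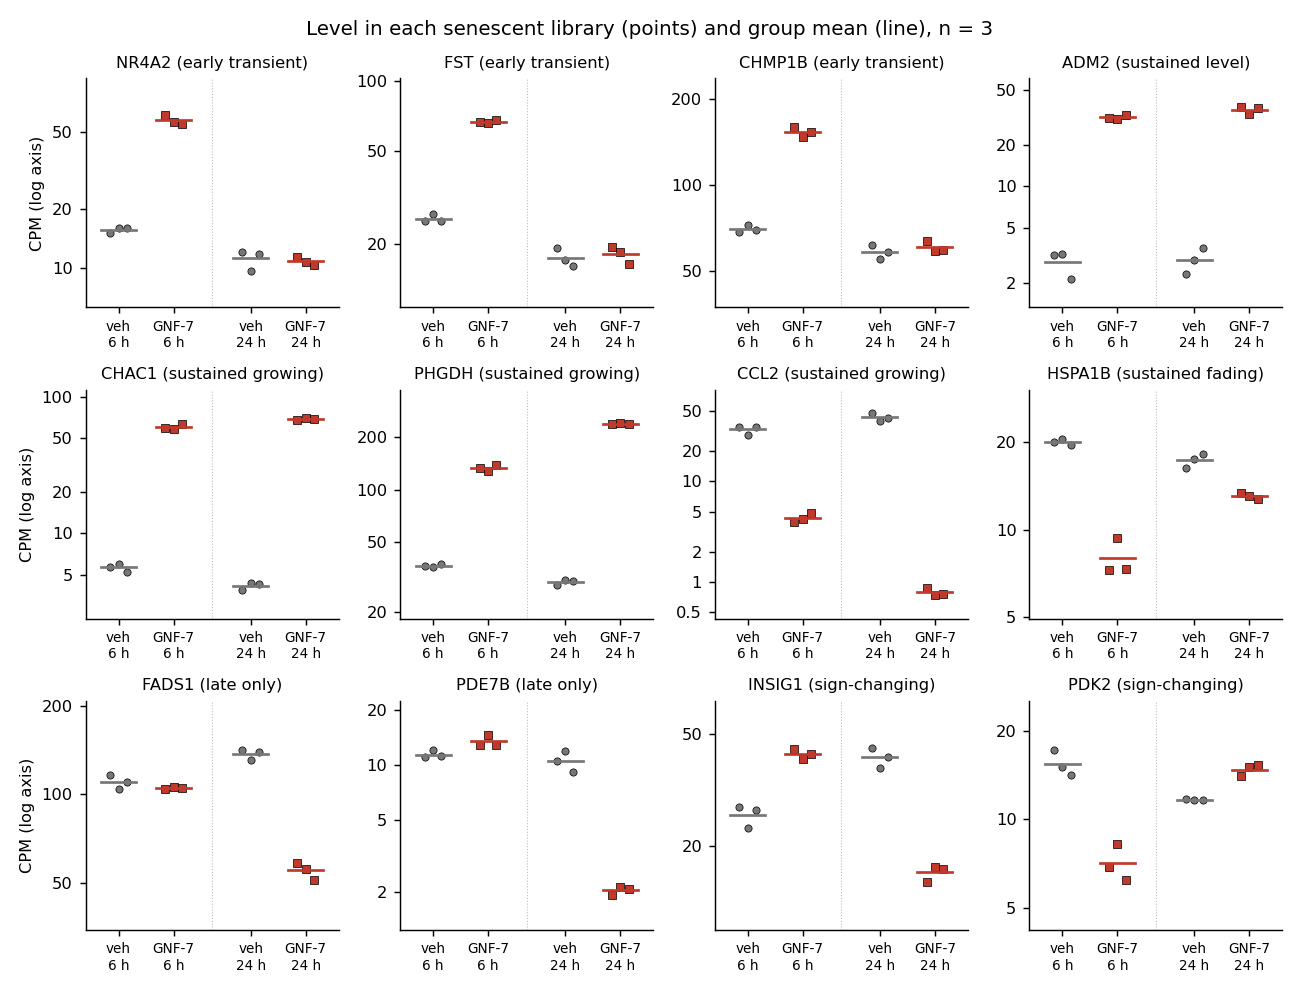
CPM in each of the 12 libraries on a log axis, by group, for 12 genes of the classes named above each panel. Points are single libraries and lines are group means of 3. NR4A2, FST and CHMP1B stand above vehicle at 6 h alone, and FADS1 and PDE7B drop at 24 h alone.

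Genes of the ISR rose early and stayed high. Of 18 ISR regulators tested, 17 were higher at 6 h and 17 at 24 h, against 17.9% and 29.3% of all genes, and the median effect was 1.44 at 6 h and 1.56 at 24 h. Of these 18, 11 had a higher interaction (12.8% of all genes did) and 1 a lower one (18% did), with a median of 0.22. By class 6 were level, 11 growing and 1 fading. ATF4, the transcription factor at the centre, was at 174, 189 and 184 CPM in vehicle and 439.8, 429 and 432 CPM in GNF-7 at 6 h, and at 187, 194 and 194 and 618, 599 and 617 CPM at 24 h. Its GNF-7 libraries were higher at 24 h than at 6 h without overlap while those of vehicle overlapped, an interaction of 0.42 (SE 0.05, adjusted p 2.26e-10). DDIT3, which encodes the ISR factor CHOP, went from 152, 157 and 154 CPM in GNF-7 at 6 h to 192, 188 and 191 CPM at 24 h, with vehicle at 21.7 to 25.1 CPM throughout (0.30, adjusted p 0.000742). It overlaps genes on both strands.

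Feedback and effector genes of the ISR kept different times. CHAC1 (ENSG00000128965, chromosome 15, 40952962 to 40956519), an enzyme that degrades glutathione, was at 5.73, 5.94 and 5.27 against 59.1, 58.4 and 62.8 CPM at 6 h and 3.86, 4.34 and 4.29 against 68.1, 69.7 and 68.9 CPM at 24 h. Its interaction of 0.64 (SE 0.124, adjusted p 2.8e-05) was made of a fall in vehicle (-0.44) and a smaller rise in GNF-7 (0.20). PPP1R15A, the GADD34 subunit that brings a phosphatase to eIF2, had effects of 0.78 and 1.44 (0.66, adjusted p 2.85e-15). NUPR1, a stress-induced nuclear protein, grew most, from 26.4, 26.1 and 29.2 CPM in GNF-7 at 6 h to 70.9, 68.01 and 71.5 CPM at 24 h, with vehicle between 3.84 and 5.57 CPM. TRIB3, a pseudokinase that restrains ATF4, had effects of 2.81 and 3.18. ADM2, a peptide hormone of the adrenomedullin family, was level, at 3.18, 3.22 and 2.15 against 31.4, 30.9 and 33.1 CPM at 6 h and 2.33, 2.93 and 3.56 against 37.5, 33.5 and 37.2 CPM at 24 h (0.16, adjusted p 0.572). The interaction of ADM2, which passed in no fit, went from 0.004 without vehicle 24 h replicate 1 to 0.317 without vehicle 6 h replicate 3. DDIT4, an inhibitor of mTORC1 signalling, was the 1 fading member, with 73.2, 74.5 and 81.9 CPM in GNF-7 at 6 h and 58.8, 55.9 and 61.96 CPM at 24 h over 13.97, 14.1 and 13.2 and 15.4, 16.1 and 15.1 CPM in vehicle. ATF5 was the 1 member lower at both times (-0.48 and -0.37). FGF21 had too few counts to be tested.

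The genes of eIF2 and its kinases did not follow. Of 6 tested, none had a higher interaction and 3 a lower one (12.8% and 18% of all genes). EIF2AK3, the kinase PERK of the endoplasmic reticulum, had effects of -0.32 and -0.83, and EIF2S1, the eIF2 subunit that the kinases phosphorylate, -0.18 and -0.47. PPP1R15B, the constitutive counterpart of PPP1R15A, fell late only (-0.01 and -0.24). EIF2AK1 and EIF2AK2 passed no test.

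Amino acid supply rose with the regulators. Of 15 genes of amino acid and one-carbon synthesis, 14 were higher at 24 h (29.3% of all genes were), with median effects of 1.71 and 1.62. Of these 15, 7 had a higher interaction and 2 a lower one (12.8% and 18% of all genes). PHGDH (chromosome 1, 119648411 to 119744226), the first enzyme of serine synthesis, was at 36.9, 36.1 and 37.7 against 133, 128 and 137 CPM at 6 h and 28.7, 30.5 and 30.2 against 237, 238 and 236 CPM at 24 h. It rose in GNF-7 (0.84) while it fell in vehicle (-0.31), an interaction of 1.15 (SE 0.063, adjusted p 3.09e-23). PSAT1, the next enzyme of that route, had effects of 2.42 and 3.12, whereas PSPH, the last one, was level at 1.49 and 1.37. ASNS, asparagine synthetase, was at 0.927, 1.26 and 1.53 against 8.82, 10.2 and 10.8 CPM at 6 h and 1.08, 1.34 and 1.01 against 12.02, 13.9 and 12.8 CPM at 24 h, and its interaction of 0.49 (SE 0.26) did not pass (adjusted p 0.156), and was 0.318 without vehicle 6 h replicate 3. Reads of ASNS may be shared with a gene that it overlaps on the same strand. GPT2, an alanine aminotransferase, faded from 1.89 to 1.62. ALDH18A1, of proline synthesis, was the 1 member lower at both times (-0.43 and -0.37).

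Of 12 amino acid transporters, 9 were higher at 24 h, against 29.3% of all genes, and 3 had a higher and 3 a lower interaction (12.8% and 18% of all genes). SLC7A5, a carrier of large neutral amino acids, shows a level effect on a falling baseline. It was at 169, 159 and 159.5 CPM in vehicle and 736, 682 and 728 CPM in GNF-7 at 6 h, and at 86.1, 87.5 and 88.1 and 372, 369 and 395 CPM at 24 h. The fall was -0.90 in vehicle and -0.92 in GNF-7, so the effects were 2.14 and 2.12. SLC7A11, the cystine carrier, grew from 2.32 to 2.87 and SLC1A5, the glutamine carrier, faded from 1.35 to 1.08. SLC38A2, a transporter known as an ISR target, fell late only (0.004 and -0.27). SLC7A11 and SLC1A5 overlap genes on the other strand.

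The 20 cytoplasmic tRNA synthetases, which load amino acids onto tRNA, divided by time and direction. At 24 h 12 were higher and 8 lower (29.3% and 29.7% of all genes). The interaction was higher in 7 and lower in 6 (12.8% and 18% of all genes). WARS1, for tryptophan, was at 104, 108 and 103 against 316, 320.3 and 311 CPM at 6 h and 99.5, 102 and 100.2 against 529, 551 and 546 CPM at 24 h (0.84, adjusted p 2.71e-21), and lies across from a gene of the opposite strand. Those for glycine (GARS1, 1.41 and 1.78) and isoleucine (IARS1, 0.81 and 1.23) also grew. AARS1, for alanine, was level at 1.58 and 1.63. The 2 subunits of the phenylalanine enzyme fell, FARSB late only (-0.02 and -0.66) and FARSA at both times (-0.16 and -0.57). VARS1, for valine, fell late only (-0.03 at 6 h and -0.52 at 24 h).

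The promoters of these genes were read for the letters TGATGCAA, a form of the C/EBP-ATF response element through which ATF4 and C/EBP proteins are known to act, because synthetases that rose and fell differed in them. Windows ran from 250 bases before to 50 after each start in RefSeq (GRCh38.p14), on either strand, for the 12107 of 18563 genes with a window. The letters were in 0.768% of these genes, in 2.45% of level rises (27 of 1103), 2.33% of growing rises (11 of 472) and 2.47% of fading rises (2 of 81). They were in 0.592% of late only rises (5 of 845) and 0.61% of early transient rises (1 of 164). Of the synthetases higher at 24 h, 6 of 10 with a window held them, and of those lower at 24 h, 0 of 6. That difference was the reason for the reading, so these 2 counts describe it and are no test of it. A gene that fell could hold the letters, as PPP1R15B of the eIF2 list did. Of genes with a window that were higher at 24 h, 2 of 14 ISR regulators, 3 of 9 synthesis genes and 2 of 8 transporters held them. The 28 bases around each match are shown for the 6 synthetases and for CHAC1, CEBPG and SLC1A5, in the direction of the gene, with the matched letters or their reverse complement in capitals. A match is a description of the sequence and not a site of binding. All the stretches shown but that of CEBPG touch an annotated exon. The matches of NARS1 and TARS1 begin after the start, and SLC1A5 also has a RefSeq start further upstream.
AARS1 (chr16:70289676-70289703, minus strand): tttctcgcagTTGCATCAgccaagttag
CARS1 (chr11:3057408-3057435, minus strand): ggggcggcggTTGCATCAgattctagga
IARS1 (chr9:92293693-92293720, minus strand): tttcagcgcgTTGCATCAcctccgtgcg
MARS1 (chr12:57488054-57488081, plus strand): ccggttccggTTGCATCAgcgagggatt
NARS1 (chr18:57621805-57621832, minus strand): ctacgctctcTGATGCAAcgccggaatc
TARS1 (chr5:33440957-33440984, plus strand): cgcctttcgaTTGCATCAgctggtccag
CHAC1 (chr15:40953252-40953279, plus strand): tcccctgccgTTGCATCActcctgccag
CEBPG (chr19:33374061-33374088, plus strand): gcgcggcgtcTGATGCAAcctgccggca
SLC1A5 (chr19:46784894-46784921, minus strand): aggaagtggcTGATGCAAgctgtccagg
Of these 9 genes, IARS1, MARS1, NARS1, CHAC1 and CEBPG were growing, AARS1, CARS1 and TARS1 level and SLC1A5 fading. Genes with the same letters thus fell into different classes.

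Genes of the endoplasmic reticulum that fold proteins and answer misfolding were mostly lower. Of 21 tested, 13 were lower at 6 h (21.4% of all genes were) and 12 at 24 h (29.7% were). Of these 21, 4 had a higher and 9 a lower interaction (12.8% and 18% of all genes). Median effects were -0.16 at 6 h and -0.21 at 24 h. CALR, HSP90B1, PDIA3, PDIA4 and PDIA6, which fold proteins in that compartment, fell at both times and further at 24 h, CALR from -0.38 to -1.16 and HSP90B1 from -0.33 to -0.98. XBP1 and ERN1, a transcription factor of the unfolded protein response and the sensor that splices its mRNA, were higher at both times (1.15 and 1.31, 1.21 and 1.58). HSPA5, the chaperone BiP, rose slightly, 0.11 and 0.34, and HYOU1 turned from -0.17 to 0.20. CALR and HYOU1 overlap genes on the other strand.

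Fading responses were few and included falls as well as rises. SIK1, a salt-inducible kinase, was at 4.14, 3.82 and 3.12 CPM in vehicle and 14.1, 14.6 and 13.4 CPM in GNF-7 at 6 h, and at 3.09, 2.89 and 3.02 and 4.71, 4.03 and 4.32 CPM at 24 h. It stayed above vehicle at both times with most of the rise gone, an interaction of -1.39 (SE 0.21, adjusted p 2.16e-07). NR4A3, a relative of NR4A2, was at 3.77, 5.65 and 5.58 against 16.8, 17.5 and 17.5 CPM at 6 h and 1.95, 1.73 and 1.66 against 2.67, 3.02 and 3.12 CPM at 24 h. SIK1 and NR4A3 reached a mean of 5 CPM over the 12 senescent libraries only through GNF-7 at 6 h. NR4A1, the third of the family, had effects of 1.64 and 1.21 with no call for the difference (adjusted p 0.113). BCL2L11, which encodes the death-promoting protein BIM, was at 19.1, 19.3 and 16.3 against 42.4, 40.4 and 41.02 CPM at 6 h and 18.7, 18.9 and 21.3 against 24.9, 23.1 and 23.4 CPM at 24 h (-0.90, adjusted p 3.92e-10). DMBT1 and MAP7 went from 1.79 to 0.28 and from 1.51 to 0.33. The inducible heat shock genes HSPA1A and HSPA1B fell and partly returned. HSPA1B was at 20.03, 20.5 and 19.5 against 7.29, 9.36 and 7.35 CPM at 6 h and 16.3, 17.5 and 18.2 against 13.4, 13.1 and 12.7 CPM at 24 h (0.92, adjusted p 9.83e-09), and HSPA1A went from -1.48 to -0.71. WNT7B, a Wnt ligand, faded as well (-1.07 and -0.21). HSPA1A and HSPA1B are near-identical copies, so the division of reads between them is uncertain. Of the 8 cytosolic heat shock genes, 3 had a higher and 2 a lower interaction (12.8% and 18% of all genes). The median interaction of 0.07 became -0.02 with a filter at a mean of 5 CPM.

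Level responses also included falls. AMD1, the enzyme that commits methionine to polyamine synthesis, had effects of -1.25 (SE 0.043) and -1.23 (SE 0.043). FOS, a subunit of the AP-1 transcription factor, was at 17.2, 6.44 and 11.6 against 2.66, 1.89 and 3.21 CPM at 6 h and 23.3, 9.42 and 17.6 against 2.104, 1.33 and 2.02 CPM at 24 h. The vehicle libraries of FOS varied severalfold, and the interaction of -1.04 (SE 0.888) did not pass (adjusted p 0.445). Membership of the level class therefore does not show that an effect was the same at both times. ARHGAP9, a GTPase-activating protein, rose at both times (2.58 and 2.96), with an adjusted p of 0.256 for the difference, and overlaps genes of the other strand.

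Sterol genes were lower at 24 h. These genes make cholesterol and take it up, and are switched on together by the transcription factor SREBP2 when membrane sterol is low. Of 23 tested, none had a higher interaction and 21 a lower one (12.8% and 18% of all genes). Median effects were -0.03 at 6 h and -0.99 at 24 h, and the median interaction was -0.89. At 6 h 4 were lower and 4 higher (21.4% and 17.9% of all genes). At 24 h 21 were lower and 1 higher (29.7% and 29.3%). By class 13 were late only, 4 growing and 4 sign-changing. In vehicle 17 of the 23 rose between the times (9.26% of all genes did), with a median of 0.30, and in GNF-7 20 fell (24.7% did), with a median of -0.56. HMGCS1, an early enzyme of the mevalonate route, was at 48.01, 43.8 and 46.6 CPM in vehicle and 40.00, 41.99 and 42.4 CPM in GNF-7 at 6 h. At 24 h it was at 64.98, 64.8 and 60.4 and 29.3, 25.4 and 29.8 CPM. The GNF-7 libraries lay below those of vehicle at both times, by a small step at 6 h and a larger one at 24 h (-1.02, SE 0.077, adjusted p 2.43e-17). SREBF2, the gene of SREBP2, was late only, with an effect of -0.05 at 6 h and -0.92 at 24 h. PMVK and TM7SF2 were the 2 members without an interaction. The HMGCS1 locus has annotated overlap on the opposite strand.

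INSIG1 (chromosome 7, 155297776 to 155310235), the protein that holds SREBP in the endoplasmic reticulum when sterol is high, turned round. It was at 27.6, 23.1 and 26.9 CPM in vehicle and 44.5, 40.8 and 42.7 CPM in GNF-7 at 6 h, and at 44.5, 38.02 and 41.6 and 14.9, 16.9 and 16.6 CPM at 24 h. The GNF-7 libraries lay above those of vehicle at 6 h and below them at 24 h without overlap, while vehicle rose by 0.68 and GNF-7 changed by -1.40. MSMO1, HSD17B7 and FDFT1, enzymes of sterol synthesis, also went from a small rise to a fall, by 0.14 and -1.51, 0.37 and -0.33, and 0.22 and -0.39. Of 9 genes of fatty acid synthesis, 8 had a lower interaction and 1 a higher one (18% and 12.8% of all genes). SCD, which makes fatty acids monounsaturated, went from 0.10 to -0.91, FADS1, a desaturase of longer chains, from -0.07 to -1.31 and FASN, fatty acid synthase, from -0.22 to -0.69. ACSS2, which makes acetyl-CoA from acetate, was the 1 that rose late (0.16 and 0.72).

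**Figure D3:**
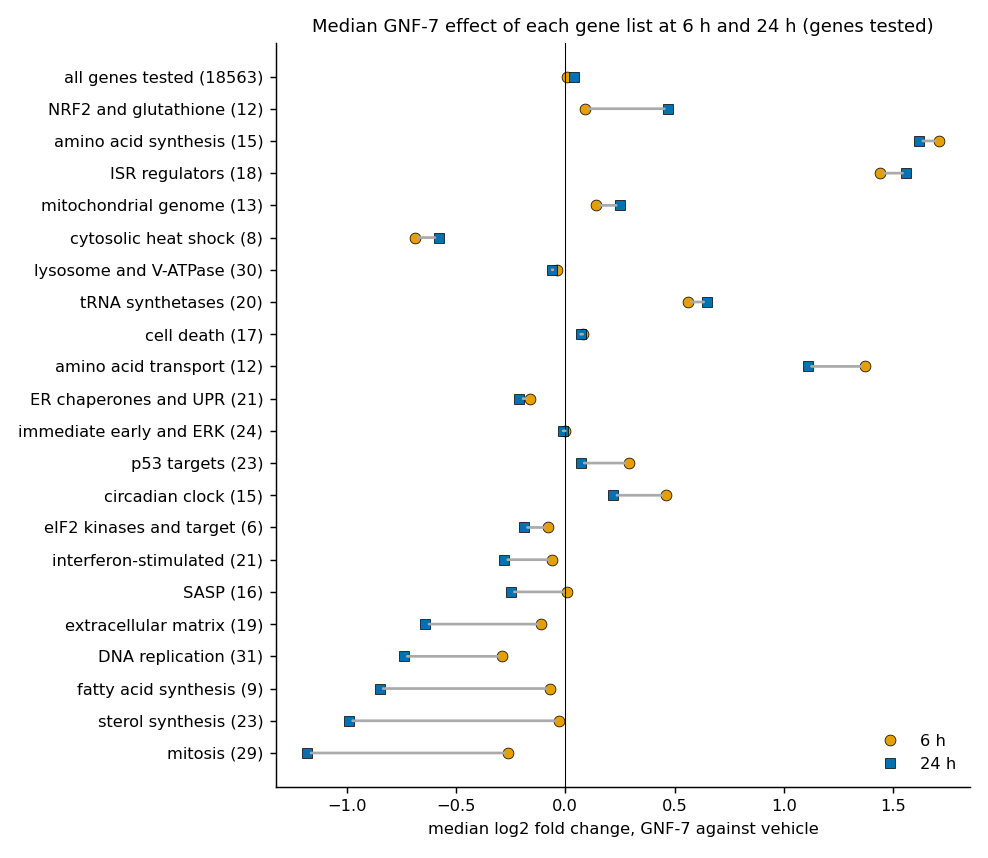
Median log2 GNF-7 effect of each gene list at 6 h and at 24 h. Lists of the ISR and amino acid supply sit high at both times, while sterol, mitosis, DNA replication and matrix lists move from between -0.29 and -0.03 at 6 h to between -1.18 and -0.64 at 24 h.

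Proliferation genes fell in steps. The levels are those that remained in senescent cells. Of 31 DNA replication genes, 26 had a lower interaction and 1 a higher one (18% and 12.8% of all genes). Median effects were -0.29 at 6 h and -0.74 at 24 h. By class 16 were growing falls, 8 late only, 2 sign-changing and 1 early transient. RRM2, the regulated subunit of ribonucleotide reductase, was at 47.1, 46.3 and 44.9 CPM in vehicle and 32.96, 35.5 and 34.2 CPM in GNF-7 at 6 h, and at 47.1, 41.3 and 41.4 and 7.82, 7.697 and 8.599 CPM at 24 h. The vehicle libraries of the 2 times overlapped, and those of GNF-7 changed by -2.09. A same-strand neighbour overlaps RRM2. MCM6, a subunit of the replicative helicase, turned round, with 19.9, 19.1 and 23.6 against 31.6, 26.5 and 29.6 CPM at 6 h and 20.6, 19.9 and 21.4 against 18.1, 17.3 and 16.4 CPM at 24 h. MCM7 of the same helicase did so too (0.14 and -0.34), while MCM3 and MCM4 fell at both times (-0.18 and -0.72, -0.29 and -0.89). CCNE1, a cyclin of the entry into S phase, was early transient (-0.48 and -0.02) and its relative CCNE2 a growing fall (-0.85 and -1.63).

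Of 29 mitosis genes, none had a higher interaction and 27 a lower one (12.8% and 18% of all genes). Median effects were -0.26 at 6 h and -1.18 at 24 h. By class 21 were growing falls and 6 late only. In vehicle 13 of the 29 fell between the times (9.29% of all genes did) and in GNF-7 28 did (24.7% of all genes). MKI67, the gene of the proliferation marker Ki-67, was at 146, 153 and 148 against 113, 116 and 114 CPM at 6 h and 123, 130.4 and 122 against 42.8, 40.1 and 34.3 CPM at 24 h. MYBL2, a transcription factor of the mitotic programme, was at 13.7, 12.8 and 14.9 against 11.4, 10.7 and 11.6 CPM at 6 h and 11.96, 12.98 and 11.9 against 1.94, 2.501 and 3.09 CPM at 24 h (-1.99, adjusted p 3.7e-19). Both genes lay below vehicle without overlap at both times, by a small step at 6 h and a large one at 24 h. CDK1, the kinase of mitotic entry, ANLN and TOP2A went from -0.42 to -1.88, from -0.41 to -1.82 and from -0.20 to -1.42. Outside the list, MYBL1, a relative of MYBL2, went from -0.45 to -2.65 and LRRC17, a secreted leucine-rich protein, from -0.27 to -2.87. NUSAP1 was the 1 member with no call in any of the 3 tests.

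Promoters of the 2 cell cycle lists were read for the letters of the E2F site, since E2F factors are known to drive replication genes. The letters TTTCCCGC or TTTGGCGC, which do not contain the response element letters above, were in 4.38% of genes with a window, on either strand. They were in 17 of 26 DNA replication genes with a window (65.4%) and in 1 of 23 mitosis genes (4.35%), NUSAP1. The stretches of MCM6, which turned round, and of MCM3, PCNA, CDC6 and CLSPN, which fell at both times, are shown so that the genes of different timing can be compared. MCM6 holds the letters at 2 places. The stretches of CDC6 and CLSPN touch an annotated exon, and the match of CDC6 begins after the start.
MCM6 (chr2:135876516-135876543, minus strand): attggtcaggTTTGGCGCgaaatctcca
MCM6 (chr2:135876578-135876605, minus strand): gggctttgcaTTTGGCGCgaaatccctt
MCM3 (chr6:52284899-52284926, minus strand): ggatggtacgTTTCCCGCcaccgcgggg
PCNA (chr20:5126664-5126691, minus strand): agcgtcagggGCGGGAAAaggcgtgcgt
CDC6 (chr17:40287876-40287903, plus strand): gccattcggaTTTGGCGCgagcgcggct
CLSPN (chr1:35769966-35769993, minus strand): ctctggctggGCGGGAAAgcaagaacag
Genes with these letters were thus found in the growing and the sign-changing class, and CDT1, POLA1 and TYMS, late only falls, held them as well.

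**Figure D4:**
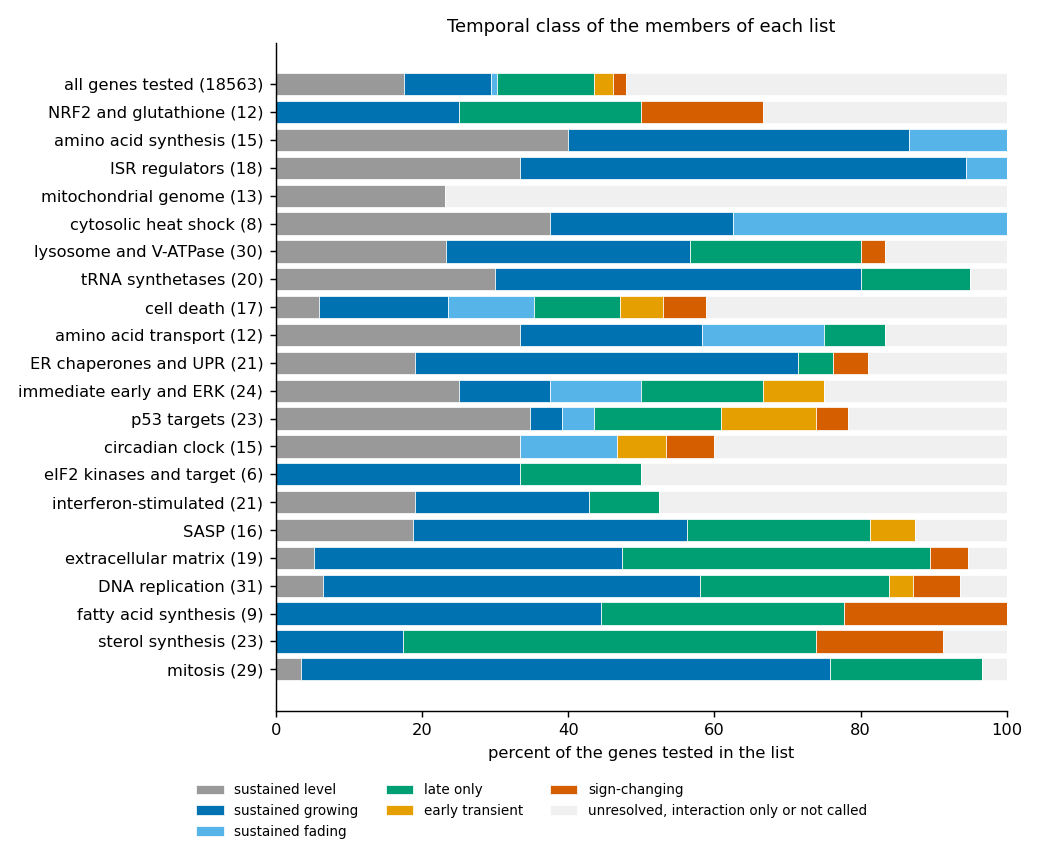
Share of each gene list in each class of timing. Rises of the ISR list are level or growing except that of DDIT4, which faded, sterol genes are mostly late only, and mitosis genes are mostly growing falls.

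Targets of p53 rose early, and some returned. Of 23 tested, 15 were higher and none lower at 6 h (17.9% and 21.4% of all genes). At 24 h 11 were higher and 6 lower (29.3% and 29.7% of all genes), so that the share lower at 24 h was near that of all genes. Of these 23, 1 had a higher and 9 a lower interaction (12.8% and 18% of all genes), with median effects of 0.29 at 6 h and 0.07 at 24 h. FAS, a death receptor, was at 124, 121 and 129.8 against 160.1, 156 and 155 CPM at 6 h and 126, 114 and 117 against 104, 96.9 and 96.2 CPM at 24 h, a rise that became a fall (-0.59). DDB2, RRM2B and BTG2 were early transient rises of 0.35, 0.28 and 0.14. CDKN1A, the cell cycle inhibitor p21, fell late only (0.05 and -0.26). Level members included GADD45A (0.84 and 0.83) and PHLDA3 (0.59 and 0.58). Of 17 cell death genes, 2 had a higher and 7 a lower interaction (12.8% and 18% of all genes), the higher ones near the share of all genes. PMAIP1, which encodes NOXA, faded from 0.73 to 0.38, BID grew from -0.37 to -0.71, and BBC3, which encodes PUMA, was level (0.54 and 0.40). FAS, CDKN1A and BCL2L11 overlap genes on the other strand.

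Secreted factors took separate courses. Of 16 genes of the senescence-associated secretory phenotype, 3 had a higher and 8 a lower interaction, against 12.8% and 18% of all genes. CCL2 (ENSG00000108691, chromosome 17, 34255218 to 34257203), a chemokine for monocytes, was at 34.7, 28.9 and 34.5 CPM in vehicle and 3.92, 4.18 and 4.84 CPM in GNF-7 at 6 h, and at 47.1, 39.2 and 42.6 and 0.868, 0.747 and 0.764 CPM at 24 h. It was low in all 6 GNF-7 libraries and fell again after 6 h, while vehicle rose (0.40), an interaction of -2.83 (SE 0.189, adjusted p 1.28e-19). CCL7, a related chemokine, went from -1.83 to -3.93. IL6 was at 3.77, 4.200 and 3.57 against 7.97, 6.27 and 6.84 CPM at 6 h and 1.44, 1.27 and 1.01 against 3.94, 4.19 and 3.45 CPM at 24 h. IL6 fell in both arms and less in GNF-7 (-1.62 and -0.86), so its effect grew from 0.87 to 1.63 while its level dropped. That interaction (adjusted p 0.0181) did not pass without vehicle 6 h replicate 2 (0.69, adjusted p 0.0523) or vehicle 24 h replicate 3 (0.64, adjusted p 0.0736). IL1B, an inflammatory cytokine, rose in both arms and more in GNF-7, to 336, 360.2 and 344 CPM at 24 h over 168, 151 and 159 in vehicle. MMP1, a collagenase, rose late only, with 32.2, 28.9 and 32.1 against 32.2, 33.5 and 33.4 CPM at 6 h and 28.3, 27.6 and 26.1 against 65.9, 70.5 and 67.7 CPM at 24 h. IL11 was an early transient rise (0.32 and -0.04). IL6 and MMP1 overlap genes on the other strand.

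Matrix genes fell, and more of them at 24 h. Of 19 tested, 10 were lower at 6 h and 15 at 24 h (21.4% and 29.7% of all genes). Of these 19, 3 had a higher and 14 a lower interaction (12.8% and 18% of all genes), the higher ones near the share of all genes. Median effects were -0.11 at 6 h and -0.64 at 24 h. SPARC, a collagen-binding glycoprotein, was at 3282, 2918 and 3143 against 2301, 2026 and 2190 CPM at 6 h and 3472, 2999 and 3270 against 638, 602 and 628 CPM at 24 h. It is also 1 of the 8 mesenchymal markers whose sum fell. VCAN, the proteoglycan versican, was at 17.7, 16.4 and 16.7 against 15.7, 14.7 and 16.3 CPM at 6 h, where the effect did not pass, and 20.5, 19.3 and 24.03 against 3.27, 4.55 and 2.56 CPM at 24 h (-2.49, adjusted p 1.28e-19). THBS1, thrombospondin 1, went from -0.92 to -2.94 and FN1, fibronectin, from -0.12 to -1.13. The chains of collagen VI went the other way, COL6A2 and COL6A3 as late rises (0.63 and 0.37 at 24 h) and COL6A1 as a change of sign (-0.11 and 0.12). Other late falls were those of PDE7B, a cyclic AMP phosphodiesterase, at 10.96, 12.1 and 11.1 against 12.9, 14.5 and 12.9 CPM at 6 h and 10.5, 11.96 and 9.09 against 1.94, 2.14 and 2.09 CPM at 24 h, and of TM4SF1, a membrane protein (-0.06 and -1.95). SPARC, VCAN, THBS1, PDE7B and TM4SF1 overlap genes on the other strand.

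Late rises included targets of NRF2, the factor that answers oxidative stress. Of 12 such genes, 8 had a higher interaction and none a lower one (12.8% and 18% of all genes). By class 3 of the 12 were late only, 3 growing and 2 sign-changing, and FTH1 was among the growing ones. Median effects were 0.09 at 6 h and 0.47 at 24 h. OSGIN1, an oxidative stress response gene, was at 14.7, 13.4 and 12.8 against 13.6, 16.3 and 15.3 CPM at 6 h, where the groups overlapped, and 10.5, 11.7 and 12.96 against 30.8, 29.4 and 29.1 CPM at 24 h. FTH1, the heavy chain of the iron store ferritin, was at 1559, 1572 and 1522 against 1850, 1834 and 1920 CPM at 6 h and 1574, 1556 and 1587 against 3146, 2904 and 3111 CPM at 24 h. GCLC and GCLM, the subunits of the enzyme that starts glutathione synthesis, reached 0.91 and 0.57 at 24 h. NQO1 and TXNRD1, reductases of the same response, turned from -0.12 to 0.29 and from -0.17 to 0.09, and HMOX1, heme oxygenase, was higher at both times (0.75 and 0.93). OSGIN1 and GCLC share sequence on their strand with other genes. The largest late rises by interaction among genes of at least 5 CPM were QRICH2 (2.31), GSDMB (2.14), CILP2 (2.14) and CACNA1A, a calcium channel subunit. CACNA1A was at 3.38, 5.71 and 4.54 against 4.83, 5.11 and 4.52 CPM at 6 h and 5.87, 4.76 and 5.42 against 18.5, 20.3 and 18.5 CPM at 24 h. CILP2 and CACNA1A reached a mean of 5 CPM over the 12 senescent libraries only through GNF-7 at 24 h.

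The growing rises with the largest interactions among genes of at least 5 CPM started from low levels. KCP, a secreted protein related to chordin, was at 5.86, 9.95 and 6.97 against 19.9, 28.1 and 23.2 CPM at 6 h and 4.82, 6.88 and 6.81 against 117, 128 and 128 CPM at 24 h, and overlaps genes of both strands. PAPPA2, a protease that cleaves binding proteins of insulin-like growth factors, was at 6.13, 6.76 and 6.14 against 11.9, 14.2 and 14.2 CPM at 6 h and 4.37, 6.42 and 4.84 against 72.1, 65.5 and 68.2 CPM at 24 h. OLAH, a thioesterase of fatty acid metabolism, was at 1.29, 0.947 and 0.728 against 2.66, 3.22 and 2.896 CPM at 6 h and 1.28, 1.66 and 1.55 against 25.2, 30.04 and 23.9 CPM at 24 h. KLHDC7B, a kelch domain protein, had effects of 2.60 and 4.98 over vehicle libraries at or under 1.01 CPM. ATP6V0D2, an isoform of a subunit of the lysosomal proton pump, was at 5.695, 5.399 and 5.51 against 12.96, 12.8 and 12.2 CPM at 6 h and 4.82, 6.84 and 6.27 against 70.6, 70.5 and 68.7 CPM at 24 h. Vehicle stayed under 10 CPM for these 5 genes. The GNF-7 libraries stood apart at both times, which the rule that chose KCP, PAPPA2, OLAH and KLHDC7B required. The minimum of 5 CPM was a mean over the 12 senescent libraries. KLHDC7B and OLAH passed it only through their GNF-7 libraries at 24 h. The level rises ADM2, ASNS and ARHGAP9 passed it only through GNF-7 libraries, and the level fall FOS only through vehicle libraries. The lysosome list was mixed. Of 30 tested, 11 had a higher and 7 a lower interaction (12.8% and 18% of all genes), the lower ones near the share of all genes. The median effect was -0.04 at 6 h and -0.06 at 24 h, and the median interaction 0.05. GPNMB and SQSTM1 grew to 0.98 and 0.69 at 24 h, and MITF and TFEB, factors that drive lysosomal genes, fell to -1.91 and -0.97. ATP6V0D1, the common isoform, had effects of -0.11 and -0.30. ATP6V0D2 overlaps a gene on the other strand.

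Genes of growth factor signalling were mixed. Of 24 immediate early and ERK target genes, 5 had a higher and 7 a lower interaction (12.8% and 18% of all genes), with median effects near 0 at both times. SPRY4, a feedback inhibitor of the ERK route, was at 18.9, 20.2 and 17.7 against 17.3, 18.3 and 17.4 CPM at 6 h and 12.2, 16.5 and 15.5 against 22.4, 27.96 and 24.1 CPM at 24 h, a late rise. The ERK-responsive factors ETV4 and ETV5 reached 0.97 and 1.39 at 24 h. FOSL1 was an early transient fall (-0.41 and -0.01), JUN a fading one (-0.74 and -0.27) and CCND1, cyclin D1, a growing one (-0.47 and -0.99). Of 15 circadian genes, none had a higher interaction and 4 a lower one, on the same background. PER1, a clock repressor, was an early transient rise (0.59 and 0.14), and NR1D2 and DBP faded, from 0.91 to 0.68 and from 0.87 to 0.41. Of 21 interferon genes, 2 had a higher and 5 a lower interaction, both near the shares of all genes. Among the lower ones was RIGI, a sensor of viral RNA (-0.12 and -0.83).

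Sign-changing genes were small in effect. The median size was 0.24 at 6 h and 0.30 at 24 h, and only 2 of the 319 passed 2-fold at both times. Of the 319, 205 (1.1% of all genes) went from higher to lower and 114 (0.614%) from lower to higher. SNAP25, a protein of vesicle fusion, was at 4.503, 4.61 and 5.83 against 9.63, 11.3 and 10.7 CPM at 6 h and 5.52, 5.78 and 4.61 against 2.34, 2.66 and 2.49 CPM at 24 h. It reached a mean of 5 CPM over the 12 senescent libraries only through GNF-7 at 6 h. PDK2, a kinase that restrains pyruvate dehydrogenase, went the other way, with 17.2, 15.1 and 14.1 against 6.87, 8.26 and 6.21 CPM at 6 h and 11.7, 11.7 and 11.7 against 14.03, 15.04 and 15.3 CPM at 24 h. EPB41L5, of the cortical cytoskeleton, was at 5.79, 6.73 and 6.14 against 4.505, 5.07 and 4.23 CPM at 6 h and 5.296, 5.57 and 5.73 against 12.5, 11.9 and 12.2 CPM at 24 h. In all 3 the groups stood apart at both times, on opposite sides of vehicle, which the rule that chose them required. PDK2 and EPB41L5 overlap genes on the other strand.

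**Figure D5:**
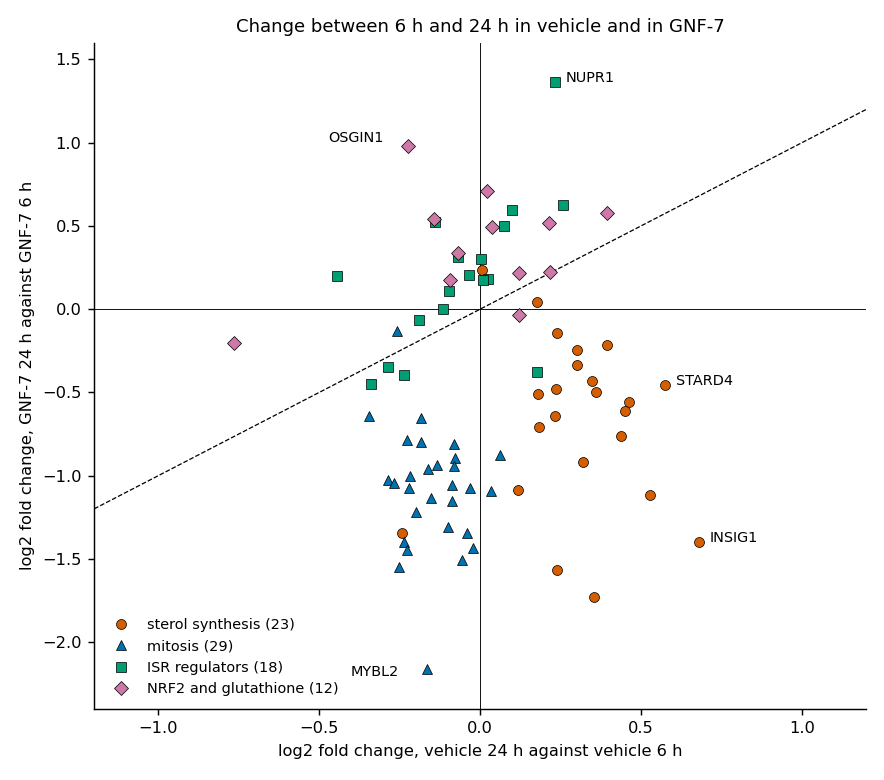
Change from 6 h to 24 h in vehicle (horizontal axis) and in GNF-7 (vertical axis), both in log2 units, for the 82 tested members of 4 gene lists, with the dashed line at equal change. Sterol genes sit mostly at the lower right, higher with time in vehicle and lower in GNF-7, and mitosis genes mostly below the line.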

How the data were processed

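RNA of 15 libraries in 5 groups of 3 was sequenced with a stranded mRNA preparation, per the labels' protocols. The authors deposited 1 table of raw counts per Ensembl gene, without normalization. The submitters' processing notes name bcl2fastq 2.20.0.422, STAR 2.7.9a, featureCounts 1.5.1 and GRCh38. The strand setting of the counting is not given in the sources used here, so reads of genes that overlap cannot be told apart. Overlap is stated beside many of the genes. On the same strand it also touches ATF5, BBC3, ETV5, FADS1, HSP90B1, HSPA1B, MARS1, NUSAP1, PER1, PHLDA3 and TM7SF2. On the other strand it also touches ANLN, ATF5, BAHCC1, BBC3, CARS1, CCND1, CCNE2, CLSPN, DBP, DDIT4, DUSP18, EIF2AK1, EIF2AK2, EIF2AK3, EIF2S1, ETV4, FADS1, FARSA, FDFT1, FTH1, GARS1, GCLC, HSP90B1, L3MBTL3, LRRC17, MAP7, MARS1, MCM7, NQO1, NR4A1, PDIA3, PDIA6, SLC7A5, SQSTM1, SREBF2 and TYMS. Of 60673 rows, 3 were left out because an entry was broken over several lines (0.00475% of a library or less). A symbol was found for 60400 of the 60670 genes that remained (99.55%). Columns were matched to libraries by the library names in the labels, and coordinates are from GENCODE release 29 on GRCh38. Library totals were 25991007 to 32323393 counts. No libraries agreed within sampling noise.

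Counts were tested with edgeR 4.0.16 (R 4.3.3) by the quasi-likelihood test with robust estimates, after filterByExpr (18563 genes) and TMM scaling, in a model with a mean for each of the 5 groups. The 5 contrasts were the interaction, the GNF-7 effect at 6 h and at 24 h, and the change from 6 h to 24 h in vehicle and in GNF-7. P-values were adjusted over all genes by the Benjamini-Hochberg method and called under 0.05. The biological coefficient of variation was 4.64%. CPM is a count scaled to the TMM-adjusted library size, and SE is the size of the log2 change over the square root of F. Promoter sequences are from RefSeq (GRCh38.p14), 250 bases before to 50 after a start. Genes named were a preset group of 13, the 4 with the largest interaction (level genes: the largest mean effect) per class and direction at a mean of at least 5 CPM, and the 2 with the smallest interaction p per list, and some meeting this rule are not reported here. Other members of the lists, and the sites printed, were picked after their values were seen. The members, classes and gene lists were chosen with earlier results of these data known. Replicate numbers were not used as pairs. The code was tested on simulated counts. Alternatives were RLE factors, total counts, scaling without mitochondrial genes, DESeq2 1.42.0, a minimum mean of 5 CPM, no filter, limma voom (limma 3.58.1), only the 12 senescent libraries, a replicate block, an adjusted p under 0.01 and leaving out each library.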

Additional observations from a re-analysis of the deposited data

Results flagged for a closer look

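The named genes whose GNF-7 effect passed at both times in opposite directions are set out here, since their direction depends on the time examined. The test of the difference itself, the edgeR interaction, passed for each. SNAP25 (interaction -2.17 on the log2 scale), RBMS3 (-2.13), INSIG1 (-2.08), GALNT15 (-1.96), SCD (-1.01), FAS (-0.59) and BMAL1 (-0.52) were higher than vehicle at 6 h and lower at 24 h. BAHCC1 (1.25), ZNF469 (1.34), PDK2 (1.46) and EPB41L5 (1.58) were lower at 6 h and higher at 24 h. RBMS3, an RNA-binding protein, had effects of 0.37 and -1.76, and its reads may be shared with a gene on the same strand. GALNT15, a glycosyltransferase, had effects of 0.46 and -1.50. BMAL1, a clock activator, fell in both arms between the times, by 0.83 in vehicle and 1.35 in GNF-7, and its GNF-7 libraries overlapped those of vehicle at both times. Its interaction did not pass without vehicle 24 h replicate 3 (-0.39, adjusted p 0.0576).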

How the results depend on the processing

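Of 154 counts of calls and classes recomputed under the alternatives, 152 stayed within 1.5 times the reported count. At an adjusted p under 0.01 there were 316 early transient genes and 158 sign-changing genes, since fewer genes pass each test. Leaving out each of the 12 libraries gave 5172 to 5750 interaction calls, 6339 to 7361 at 6 h, 10109 to 11101 at 24 h, 417 to 520 early transient, 2143 to 2752 late only, 235 to 335 sign-changing and 4935 to 5525 sustained genes. The filter at a mean of 5 CPM shifted the median effect at 24 h by 0.101, and of the early transient genes it tested, 211 of 399 (52.9%) kept that class, against 184 of 289 (63.7%) for sign-changing genes. The share of interaction calls that were higher was 41.5% as reported and 38.5 to 44.8% over the scalings and tools, and 46.5% with the 5 CPM filter. Deviations from the group means correlated from -0.141 to 0.254 in 18 same-numbered pairs, 12 of them over 0.1, and from -0.234 to 0.172 in 36 other pairs, 3 of them over 0.1. Of 12 libraries, 10 had their highest mean correlation with their own number. This is a hint of pairing, but not every pair passed 0.1 and no label ties the numbers to a shared source. With a replicate block there were 5921 interaction calls, 7481 at 6 h, 11031 at 24 h, 512 early transient, 2456 late only, 343 sign-changing and 5777 sustained genes. The interaction of AMD1, near 0 and not called, changed sign to -0.004, -0.006 and -0.010 without GNF-7 24 h replicate 1, GNF-7 6 h replicate 1 and vehicle 6 h replicate 3 (the leave-one-out range was -0.010 to 0.048), and the cause was not tested. Of 441 list medians, 436 moved by less than the spread. Those that moved were heat shock (-0.015) and cell death (-0.105) with the 5 CPM filter, cell death with the 12 senescent libraries (-0.141) and without vehicle 6 h replicate 1 (-0.139), and amino acid synthesis without vehicle 6 h replicate 3 (0.199).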

Other observations

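Classes differed in the kind of gene they held. Of the 1580 growing falls 98.7% were protein-coding, against 72.9% of all genes tested. The level rises lay near all genes, with 69.4% protein-coding. Long noncoding genes made up 355 of the 1672 level rises and 3305 of the 18563 genes tested. The median length of the gene in the genome was 67.5 kb for genes that went from higher to lower, 47.5 kb for early transient rises and 24.2 kb over all genes tested. The 6201 genes without a call in the interaction or at either time had a median of 13.2 kb, and their lower counts enter that value, so these are descriptions with no test. The letters of the cyclic AMP response element, TGACGTCA, were in 3.68% of all genes with a promoter window. They were in 6.71% of early transient rises (11 of 164), and in 4.55% of those with an effect of at least 2-fold at 6 h (1 of 22). Early transient falls held them in 4.52% (9 of 199). The shares were 6.06% of genes that went from higher to lower (10 of 165) and 0 of 83 that went from lower to higher. A gene counted if any of its windows held the letters. Mean windows per gene were 1.64 for early transient rises, 1.89 for genes that went from higher to lower and 1.44 for all genes. The part of this in the shares was not tested.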
